A study of Homo sapiens with 12 samples.

Results

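Cells of the bronchial epithelial line BEAS-2B, here B2B, were compared under 2 compounds that act on AP-1 by different routes, SP600125 and SR11302. The members are the 2 libraries titled with SP600125 and the 2 titled with SR11302 in this line, 4 of the 12 RNA sequencing libraries of the series, and every gene listed for them. B2B is a non-cancerous line that the study describes as SV40-immortalised. The remaining libraries are untreated B2B cells and the same 3 conditions in A549, a lung adenocarcinoma line. B2B_SR11302 cells received 10 µM SR11302 and B2B_SP600125 cells 50 µM SP600125, each for 72 h and dissolved in DMSO. No genetic change was made in either group. The doses differ, so an effect of the compound and an effect of the dose cannot be told apart, and the labels do not say whether the 2 libraries of a group came from separate cultures. All p-values therefore measure the spread between these libraries, with each gene's spread drawn towards that of other genes. Of the 26485 gene symbols listed, 14099 held enough reads to be tested.

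AP-1 is a family of transcription factors in which a Jun protein (JUN, JUNB or JUND) pairs with another Jun or with a Fos protein (FOS, FOSB, FOSL1 or FOSL2) to bind short DNA elements in promoters and enhancers. Growth factors, stress and cytokines raise AP-1 activity, partly because the Jun N-terminal kinases (JNK) phosphorylate Jun, and genes of matrix remodelling, cytokines and cell migration are well known targets. SP600125 is an anthrapyrazolone that competes with ATP in JNK and at higher doses also affects other kinases. SR11302 is a retinoid-related compound that interferes with AP-1 activity without activating the retinoic acid response element. The compounds are not structurally related. The question is how the transcriptome under a JNK inhibitor differs from that under a direct AP-1 blocker in the same cells.

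Reads counted in genes numbered 23328567 and 16782262 in the SR11302 libraries and 17459734 and 15103456 in the SP600125 libraries. The share of tallied reads that aligned to several places was 21.1% and 19.5% under SR11302 against 15.3% and 14.9% under SP600125, while reads in no gene made up 14.6 to 15.1% of each library. Values below are read counts scaled to a common library total (CPM, relative to all reads in genes) after TMM normalisation over the 4 libraries, given for replicates 1 and 2 in that order, and fold changes are log2 of SP600125 over SR11302 ± SE from edgeR with n = 2 per group. The label of an epithelial line was checked against markers. KRT7, KRT8 and KRT18 stood between 199.5 and 1045 CPM in all 4 libraries and VIM, the mesenchymal filament protein, between 794 and 1682 CPM. Other markers went against the epithelial label. On the scale of all 12 libraries, the epithelial adhesion genes CDH1 and EPCAM were at 3.39 CPM or less in these 4 libraries and the mesenchymal cadherin CDH2 between 172 and 214 CPM. The basal airway markers KRT5, KRT14 and TP63, the club cell marker SCGB1A1, the ciliated cell marker FOXJ1 and the leukocyte markers PTPRC and CD3E had at most 9 reads in any of the 4 libraries. Traces of A549 were looked for in 12 genes listed for that line, 2 of which (TSPAN8 and AKR1C4) proved to be at 3.55 CPM or less in A549 itself. The 4 with enough reads to be tested in B2B (CPS1, AKR1C2, ALDH1A1 and AKR1B10) were called higher under SP600125, but all except CPS1 were at 0.175 CPM or less under SR11302 and passed the filter only through the SP600125 libraries. AKR1C3, not tested, went the other way, with 23 and 8 reads under SR11302 and 6 and 2 under SP600125. ALDH1A1 had 2 reads over both SR11302 libraries and 69 over both SP600125 libraries (ratio 40.5, 95% counting interval 10.8 to 341). The level in B2B stayed far below that of A549, where ALDH1A1 ranged from 9677 to 13673 CPM in the treated libraries, against at most 2.01 CPM in treated B2B on the same 12-library scale. Any part of such traces in the results was not tested.

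Of 14099 genes tested, 5288 were called, 2389 higher and 2899 lower under SP600125 than under SR11302, where a call needs a Benjamini-Hochberg adjusted p under 0.05 from edgeR's quasi-likelihood test and a log2 fold change of 0.5 or more in size. This is 16.9% of tested genes higher and 20.6% lower, and counts of gene groups below are given beside these shares. The lists were chosen with earlier results of these data known, so their counts and medians are descriptions and no test. A gene with few reads in 1 group that passed the filter only through the other could be called in 1 direction only. Both libraries of 1 group lay above both of the other for 2383 of the 2389 genes called higher and for 2896 of the 2899 called lower. A call already favours such separation, and its share over all tested genes was not computed. A 2-fold difference or more was reached by 897 of the genes called higher and 1479 of those called lower, and an 8-fold difference by 64 and 113. The log2 CPM of the 2 libraries of a group correlated at 0.992 under SR11302 and 0.989 under SP600125 (Pearson's r across genes, which are not independent replicates), and at 0.936 to 0.9499 between groups. In bulk RNA, fewer cells making a transcript and less transcript per cell cannot be told apart.

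**Figure D1:**
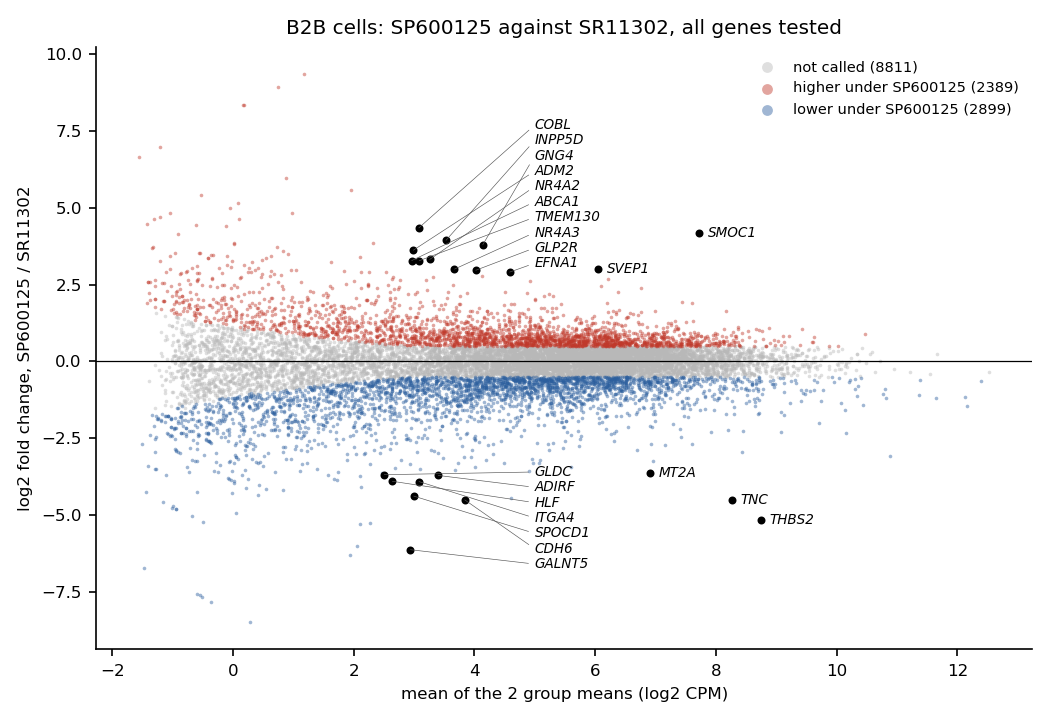
Each point is 1 of 14099 tested genes, with the mean of the 2 group means in log2 CPM on the x axis and the log2 fold change of SP600125 over SR11302 on the y axis. Red points were called higher (2389), blue points lower (2899), and black points are most of the genes with the largest changes among those at 10 CPM or more in the higher group, where THBS2 and TNC lie lowest among abundant genes and SMOC1 highest.

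THBS2 and TNC, both secreted matrix proteins, were among the 12 genes with the largest falls at 10 CPM or more in the higher group. THBS2, which encodes the matricellular protein thrombospondin 2 (chromosome 6, 169215780 to 169254050, build hg38), stood at 877 and 800.0 CPM under SR11302 and at 13.7 and 33.1 CPM under SP600125. Both SP600125 libraries were far below both SR11302 libraries, a log2 fold change of -5.18 ± 0.20 (adjusted p = 4.73e-25). Tenascin C (TNC), a matrix glycoprotein of wound repair, went from 612 and 566 CPM under SR11302 to 19.7 and 31.9 CPM under SP600125 (-4.52 ± 0.16, adjusted p = 1.69e-26). GALNT5, an enzyme that starts mucin-type glycosylation, had the largest fall by this rule, with 16.2 and 14.2 CPM against 0.166 and 0.260 CPM (-6.13 ± 0.36, adjusted p = 1.49e-18). Other strong falls concerned the cadherin CDH6 (-4.51), the integrin ITGA4 (-3.91), the clock output factor HLF (-3.90), SPOCD1 (-4.39) and the glycine decarboxylase GLDC (-3.69), whose sequence is only 79.7% unique among annotated transcripts. ADIRF (-3.71) overlaps an antisense gene and the strand setting of the counting is not given, so its reads are uncertain, as are those of the 28S ribosomal RNA locus RNA28S5 (-4.46).

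In the other direction SMOC1, a secreted calcium-binding protein of basement membranes (chromosome 14, 69854131 to 70032366), stood at 21.6 and 22.8 CPM under SR11302 and at 420.0 and 384 CPM under SP600125. The groups did not overlap, and the log2 fold change was 4.18 ± 0.14 (adjusted p = 2.77e-27). SVEP1, a large matrix protein of the vessel wall and lymphatics, rose from 14.1 and 15.3 CPM to 110.5 and 126 CPM (3.01 ± 0.14). COBL, an actin nucleator, was at 0.963 and 0.554 CPM under SR11302 and at 16.9 and 15.4 CPM under SP600125 (4.35 ± 0.29), and INPP5D, an inositol phosphatase that opposes PI3 kinase signalling, was at 1.49 and 1.29 against 22.3 and 21.2 CPM (3.95 ± 0.24). The remaining genes of this kind were the G protein subunit GNG4 (3.80), the peptide hormone ADM2 (3.62), the orphan nuclear receptors NR4A2 (3.32) and NR4A3 (3.01), the cholesterol exporter ABCA1 (3.29), TMEM130 (3.28), the glucagon-like peptide receptor GLP2R (2.97) and the ephrin EFNA1 (2.91). In the plot of all tested genes these lie well apart from the bulk of genes of similar level. ADM2 differed between the SP600125 libraries, with 9.36 and 20.04 CPM.

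The AP-1 subunits did not move as a block: 3 of 7 were higher, 3 lower and 1 was not called. The transcript of FOS (chromosome 14, 75278826 to 75282230) was at 14.0 and 12.8 CPM under SR11302 and at 74.0 and 49.6 CPM under SP600125. Both SP600125 libraries were higher than both SR11302 libraries although they differed from each other, and the log2 fold change was 2.21 ± 0.17 (adjusted p = 4.41e-15). FOSB (chromosome 19, 45467995 to 45475179) was at 1.75 and 1.97 against 7.42 and 7.29 CPM (1.987 ± 0.29, adjusted p = 1.76e-07). JUNB (chromosome 19, 12791486 to 12793315) was at 22.6 and 20.7 against 65.1 and 49.8 CPM (1.40 ± 0.15, adjusted p = 1.72e-10). All 3 are subunits with fast, transient induction by serum or growth factors, a trait that is not theirs alone.

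FOSL1 (chromosome 11, 65892049 to 65900573), which encodes the Fos-related antigen FRA1 common in migrating and transformed cells, was at 62.6 and 74.1 CPM under SR11302 and at 9.36 and 12.4 CPM under SP600125. This was the largest change of the family, -2.66 ± 0.16 (adjusted p = 4.72e-18), with no overlap between the groups. JUN (chromosome 1, 58776845 to 58784048), whose promoter AP-1 itself can activate, was at 189 and 193 against 96.2 and 114 CPM (-0.86 ± 0.12, adjusted p = 1.9e-07). JUND (chromosome 19, 18279694 to 18281622) was at 145 and 161 against 80.7 and 92.4 CPM (-0.82 ± 0.13, adjusted p = 6.04e-07), but with an offset for each gene's GC content the difference was -0.03 and was not called. FOSL2 (chromosome 2, 28392448 to 28417317) was at 164 and 168 against 139.7 and 134 CPM, a difference of -0.28 ± 0.12 that missed the threshold (adjusted p = 0.0506). Summed over the 7 subunits, the level was 599 and 632 CPM under SR11302 and 473 and 460.1 CPM under SP600125.

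**Figure D2:**
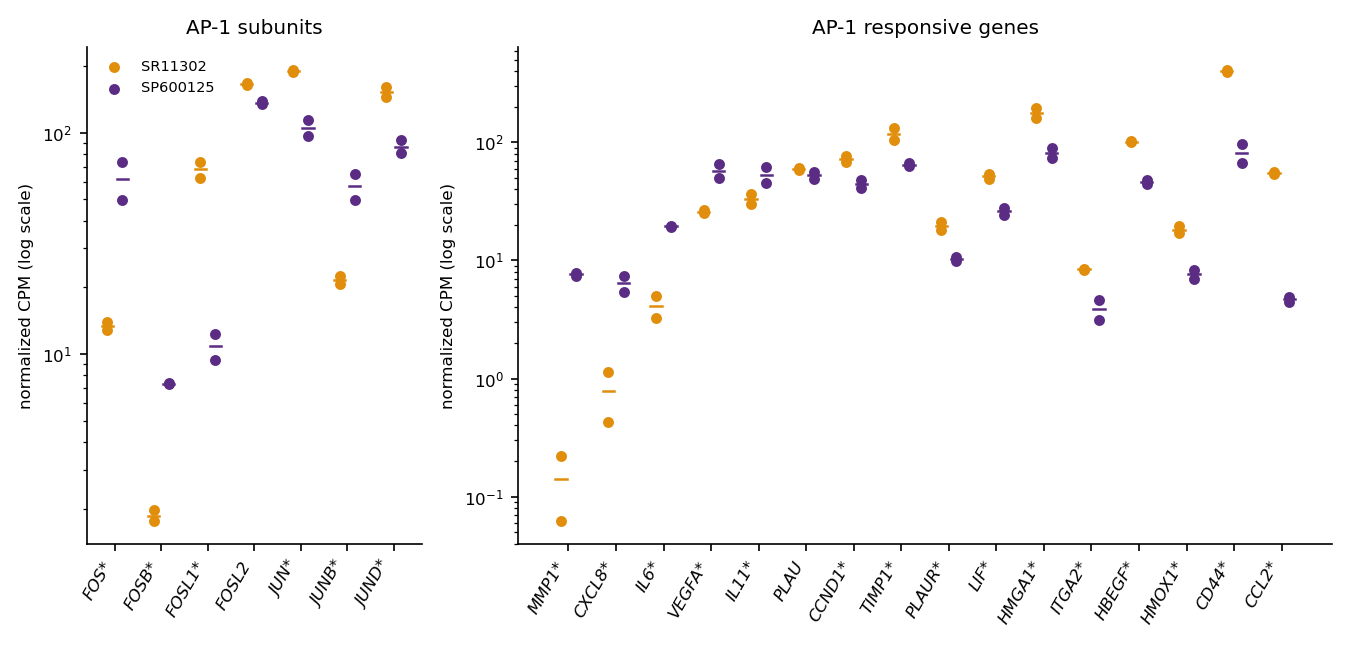
Normalised CPM on a log axis for the 7 AP-1 subunits (left) and 16 of the 17 tested AP-1 responsive genes (right), with 1 point per library, a short line at the mean of 2 libraries, orange for SR11302 and violet for SP600125, and an asterisk at called genes. FOS, FOSB and JUNB lie higher and FOSL1, JUN and JUND lower under SP600125, and among responsive genes MMP1 rises from under 1 CPM while CCL2 falls further than FOSL1.

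Of 17 tested genes known to respond to AP-1, 11 were lower and 5 higher under SP600125, with a median log2 fold change of -0.93 against -0.01 over all genes tested. CCL2, the monocyte chemokine, was at 56.1 and 54.3 CPM under SR11302 and at 4.49 and 4.88 CPM under SP600125 (-3.56 ± 0.18, adjusted p = 5.76e-21). The gene separated the groups completely. MMP1, the interstitial collagenase and a classical AP-1 target, moved the other way, from 0.219 and 0.0616 CPM to 7.87 and 7.42 CPM (5.58 ± 0.45, adjusted p = 2.54e-14). MMP1 passed the filter only through the SP600125 libraries and so could only be called higher. CXCL8, the neutrophil chemokine, was at 1.14 and 0.431 against 7.37 and 5.40 CPM (2.94 ± 0.36, adjusted p = 3.52e-09). The remaining 4 of the 21 listed genes had too few reads to be tested.

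Promoters of the AP-1 responsive genes were read from RefSeq, which gave a window for 10 of them, with 250 bases before the start on GRCh38.p14 searched and, where printed, the last 220 of these shown. The AP-1 element TGANTCA, searched on both strands and identical to its own reverse complement, was in 3 of the 10, those of CXCL8, PLAUR and IL11, and in 6.6% of all 27305 promoters. A pair is printed because the genes moved in opposite directions although each holds the element near its start, with the element in capitals. PLAUR, the urokinase receptor, was chosen for this after its values were seen (18.03 and 21.2 CPM under SR11302, 9.92 and 10.7 CPM under SP600125, -0.93 ± 0.18). The windows lie before the RefSeq start, and GENCODE 44 lists transcripts of both genes that begin within or upstream of them.
CXCL8 (chr4:73740349-73740568, + strand): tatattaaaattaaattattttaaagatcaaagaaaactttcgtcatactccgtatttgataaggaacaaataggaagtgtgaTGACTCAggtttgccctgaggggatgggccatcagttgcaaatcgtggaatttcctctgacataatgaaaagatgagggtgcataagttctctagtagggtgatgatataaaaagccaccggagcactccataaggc
PLAUR (chr19:43670170-43670389, - strand): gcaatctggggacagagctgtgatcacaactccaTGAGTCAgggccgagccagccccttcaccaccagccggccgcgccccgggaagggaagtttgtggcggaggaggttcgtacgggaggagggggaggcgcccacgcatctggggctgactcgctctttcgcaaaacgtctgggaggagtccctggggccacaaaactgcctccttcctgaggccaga
Among tested genes with a promoter window, the element was in 4.48% of 1785 called higher, 5.00% of 2100 called lower and 3.43% of 6534 not called. The related cyclic AMP response element TGACGTCA was in 3.53%, 1.90% and 3.03% of them. A match of letters is a description of the window and does not show binding.

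Further bZIP factors, some of which form dimers with Jun or Fos, were called in 6 of 14 cases, 2 higher and 4 lower. CREB5, a partner of Jun, was at 66.7 and 66.1 CPM under SR11302 and at 5.87 and 12.4 CPM under SP600125 (-2.88 ± 0.19, adjusted p = 4.87e-17). MAF (-1.58) and the small MAF protein MAFF (-1.004) were lower. Genes of the JNK cascade itself showed 5 higher and 4 lower of 16, with a median of -0.03. The kinase MAP3K1, which acts upstream of JNK, was at 70.5 and 60.8 against 151 and 156 CPM (1.22 ± 0.13), and the JNK phosphatase DUSP10 at 2.93 and 2.22 against 6.54 and 6.18 CPM (1.29 ± 0.28). The stress kinase MAP3K5 (-1.34) and the phosphatase DUSP8 (-0.90) were lower, but the DUSP8 call was lost with the GC offset, under which the list held 3 higher and 1 lower.

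Immediate early genes and feedback genes of the ERK pathway, which share upstream signals with AP-1, were higher in 10 and lower in 3 of 20, with a median of 0.58. NR4A2 stood at 2.06 and 1.35 CPM under SR11302 and at 20.8 and 14.1 CPM under SP600125 (3.32 ± 0.26, adjusted p = 1e-14). NR4A3 was at 3.37 and 2.15 against 24.9 and 20.5 CPM (3.01 ± 0.22, adjusted p = 2.91e-15). ETV4, an ETS factor downstream of ERK, went the other way, from 14.7 and 16.8 to 1.88 and 3.84 CPM (-2.48 ± 0.25). EGR2 (2.01 ± 0.56) rested on levels of 0.306 to 2.11 CPM, and SP600125 replicate 2 was at 0.781 CPM.

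Structural genes of the extracellular matrix were lower under SP600125 more often than higher. Of 17 collagen genes tested, 9 were lower and 3 higher (median -0.60). COL1A1, the main chain of fibrillar type I collagen (chromosome 17, 50184101 to 50201632), fell from 3227 and 3571 CPM under SR11302 to 397 and 409 CPM under SP600125. The groups lay far apart, with a log2 fold change of -3.08 ± 0.13 (adjusted p = 5.21e-24). Its partner chain COL1A2 was at 99.8 and 84.6 against 15.5 and 19.1 CPM (-2.42 ± 0.15), COL3A1 had a change of -2.08 ± 0.16, and COL13A1, a transmembrane collagen of low level, one of -2.54 ± 0.34. With the GC offset 6 collagens were called higher and 8 lower.

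Of 23 matrix glycoproteins and modifying enzymes, 11 were lower and 1 higher (median -0.46). Besides THBS2 and TNC, the collagen cross-linking enzyme LOXL1 was at 211 and 237 CPM under SR11302 and at 19.2 and 28.8 CPM under SP600125 (-3.23 ± 0.15, adjusted p = 4.66e-22). Integrins and laminins, which attach cells to the matrix, were lower in 10 and higher in 5 of 22 (median -0.35). LAMA1, a laminin alpha chain, was at 22.0 and 26.9 against 4.04 and 5.66 CPM (-2.34 ± 0.21), and ITGA4 above belongs here too. Matrix proteases and their inhibitors were lower in 8 and higher in 2 of 14 (median -0.90). The inhibitor TIMP3 fell from 43.3 and 38.2 to 3.55 and 4.81 CPM (-3.29 ± 0.19, adjusted p = 1.23e-18), and SERPINB2 was at 2.01 and 1.48 against 0.166 and 0.195 CPM (-3.25 ± 0.60). The 2 higher genes were MMP1, as given above, and MMP2, at 13.9 and 15.6 against 29.2 and 26.7 CPM (0.92 ± 0.17).

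Actin and serum response factor targets were lower in 8 and higher in 2 of 20 (median -0.39). TAGLN (transgelin) was at 447 and 524 CPM under SR11302 and at 68.4 and 138 CPM under SP600125 (-2.23 ± 0.17, adjusted p = 3.87e-15), and CNN1 (calponin) at 26.4 and 31.8 against 3.21 and 6.38 CPM (-2.62 ± 0.22). The smooth muscle actins split, since ACTG2 was lower (-2.70 ± 0.51) and ACTA2 rose from 2.63 and 2.40 to 17.5 and 14.4 CPM (2.66 ± 0.23). Targets of YAP and TEAD, the factors that sense cell tension, were lower in 5 and higher in 1 of 16 (median -0.36). The tissue factor gene F3 (-1.93), FJX1 (-1.49) and the receptor kinase AXL (-1.35) were lower, and the single higher gene was ANKRD1, at 8.36 and 8.50 against 41.6 and 62.9 CPM (2.63 ± 0.18).

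Genes of the TGF-beta pathway, which drives matrix production, were higher in 5 and lower in 4 of 22 with a median of 0.09, close to all genes. The receptor TGFBR1 was at 282 and 230.3 CPM under SR11302 and at 81.0 and 97.5 CPM under SP600125 (-1.52 ± 0.13, adjusted p = 2.26e-13), while the ligand BMP4 (1.45), the inhibitor of differentiation ID2 (1.46) and the repressor TGIF1 (1.37) were higher. Mesenchymal genes were called in 3 of 15, with VIM (-0.90) and endoglin, ENG (-1.60), lower and the repressor ZEB1 higher (1.34). Epithelial genes were lower in 5 and higher in none of 15. KRT7 was at 896 and 1045 against 333 and 461 CPM (-1.29 ± 0.13, adjusted p = 4.15e-11), KRT19 (-2.42 ± 0.46) was at 3.26 CPM or less, and the splicing factor ESRP2 was lower (-1.47 ± 0.29). CDH1, OCLN, TJP1 and DSP, which encode junction proteins, were not called, with log2 fold changes from -0.20 to 0.41. KRT8 (-0.68) lost its call with the GC offset, and 61.5% of its sequence is unique.

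Of 5 airway basal genes tested, KRT17 (-2.47), DST (-0.92) and ITGA6 (-0.70) were lower and NGFR (1.83) was higher. PDPN had 2 reads over both SR11302 libraries and 34 over both SP600125 libraries (ratio 19.95, 95% counting interval 5.11 to 171). PDPN, and PECAM1 below, passed the filter only through the SP600125 libraries and so could only be called higher. Among 9 tested markers of other cell types, 2 were higher and 3 lower. The endothelial marker PECAM1 had no reads under SR11302 and stood at 3.82 and 5.21 CPM under SP600125, at least 58.3-fold higher over both libraries by the limit that a count of 0 allows (3 reads), while KDR and VWF, also endothelial, were not called and CDH5 was at 1.11 CPM or less (1.57 ± 0.58). The neuronal tubulin gene TUBB3, also present in many cell lines, was at 53.5 and 59.6 against 8.98 and 9.11 CPM (-2.64 ± 0.16), with 89.8% unique sequence. The macrophage-associated genes CD68 (-1.33) and CD14 (-1.30) were lower, and MUC1, the 1 secretory gene of 14 that could be tested, was lower as well (-1.22).

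Cholesterol synthesis and uptake had the largest share of genes called in 1 direction among the lists with at least 5 tested members. Of 25 genes tested, 22 were lower and none higher under SP600125 than under SR11302, with a median log2 fold change of -1.33. In cells this pathway is driven by the transcription factor SREBP2 (gene SREBF2) when sterol is scarce. HMGCS1, which makes the precursor HMG-CoA, was at 371 and 303 CPM under SR11302 and at 48.8 and 56.4 CPM under SP600125 (-2.68 ± 0.14, adjusted p = 6.68e-21). DHCR7, an enzyme of the final steps, was at 131 and 141 against 20.7 and 24.3 CPM (-2.60 ± 0.14, adjusted p = 5.9e-20). The groups were far apart for both. The 3 genes not called were FDPS, NSDHL and TM7SF2, with log2 fold changes of -0.45, -0.38 and -0.29. With the GC offset 21 of the 25 were called lower.

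SREBF2 itself, named here after its values were seen, was at 263 and 287 CPM under SR11302 and at 97.1 and 108 CPM under SP600125 (-1.42 ± 0.12, adjusted p = 4.19e-13). RefSeq gave promoter windows for 18 of the 25 genes. The sterol regulatory element TCACNCCAC, searched on both strands, was found in the window of SREBF2 only, against 0.875% of all promoters. This window is printed because it is the 1 sterol gene promoter that holds the element in full, with the element in capitals.
SREBF2 (chr22:41832885-41833104, + strand): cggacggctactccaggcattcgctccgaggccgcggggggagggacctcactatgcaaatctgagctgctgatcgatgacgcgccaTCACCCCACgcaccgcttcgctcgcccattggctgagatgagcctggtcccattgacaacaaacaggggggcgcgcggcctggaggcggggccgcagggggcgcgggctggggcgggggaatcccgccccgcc

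Of 16 fatty acid genes, 7 were lower and 1 higher (median -0.43). Fatty acid synthase, FASN, was at 529 and 634 CPM under SR11302 and at 132 and 112 CPM under SP600125 (-2.25 ± 0.13, adjusted p = 8.8e-19), and the desaturase SCD at 288 and 269 against 50.4 and 72.1 CPM (-2.19 ± 0.14, adjusted p = 1.29e-17). The elongase ELOVL6 (-1.51) and the lipase PNPLA3 (-1.19) were also lower. Cholesterol efflux genes and targets of the liver X receptor, which respond when sterol is plentiful, were higher in 4 and lower in 1 of 8. ABCA1 was at 1.62 and 1.23 against 15.1 and 13.2 CPM (3.29 ± 0.26, adjusted p = 2.52e-14). ABCG1, the second sterol exporter, had 2 reads over both SR11302 libraries and 121 over both SP600125 libraries (ratio 71.0, 95% counting interval 19.2 to 593). ABCG1, counted among the 4 higher, passed the filter only through the SP600125 libraries and so could only be called higher. MYLIP, a liver X receptor target, was higher (0.97 ± 0.18), and APOE was lower (-0.82 ± 0.29), a call lost with the GC offset (-0.10).

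**Figure D3:**
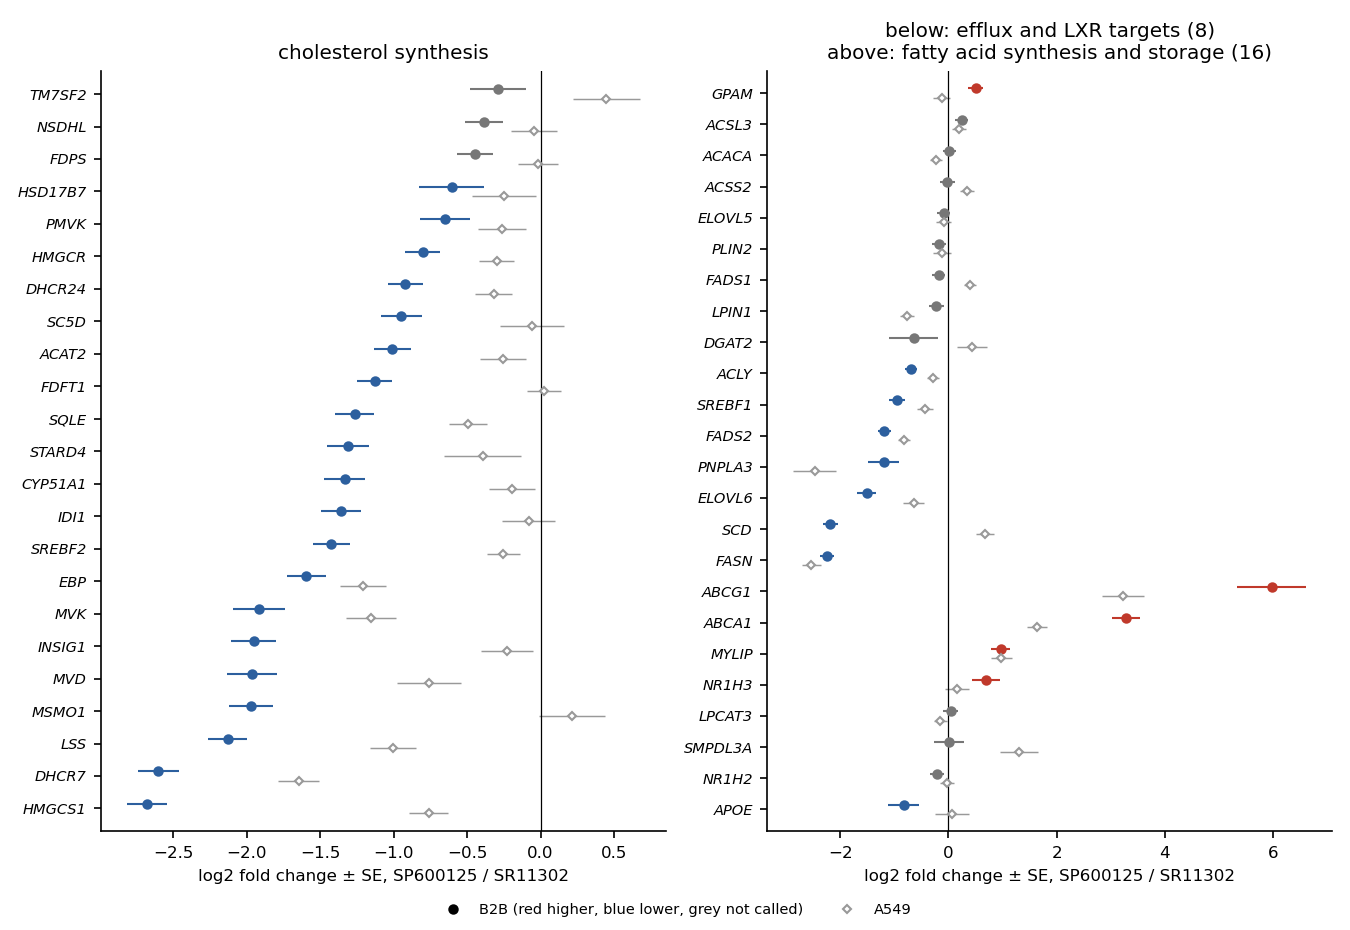
Log2 fold change of SP600125 over SR11302 ± SE for 23 of the 25 genes of cholesterol synthesis and uptake (left), and for 16 genes of fatty acid synthesis above 8 genes of efflux and liver X receptor targets (right). Filled circles are B2B (red higher, blue lower, grey not called) and open diamonds A549, and 20 of the 23 cholesterol genes drawn are lower in B2B while most of those of A549 lie nearer 0.

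Genes of the integrated stress response, through which the factor ATF4 raises amino acid synthesis and transport when translation initiation is curbed, were higher in 24 and lower in 2 of 30, with a median of 0.93. NUPR1, a stress-induced chromatin protein, was at 1.31 and 1.97 CPM under SR11302 and at 7.42 and 14.6 CPM under SP600125 (2.76 ± 0.30, adjusted p = 1.95e-10). Asparagine synthetase, ASNS, was at 20.4 and 19.8 against 77.2 and 179.5 CPM (2.67 ± 0.20, adjusted p = 1.75e-15), and CHAC1, which degrades glutathione, at 1.84 and 1.91 against 8.98 and 14.5 CPM (2.64 ± 0.27, adjusted p = 5.08e-11). In all 3 genes both SP600125 libraries were above both SR11302 libraries and replicate 2 was above replicate 1. DDIT4, an inhibitor of mTORC1, was at 21.7 and 20.6 against 101.5 and 129.9 CPM (2.45 ± 0.14, adjusted p = 1.06e-18). ATF4 itself had a change of 0.96 and its partner DDIT3 one of 1.28. The 2 lower genes were the amino acid transporter SLC7A5, at 1902 and 2131 against 674 and 847 CPM (-1.41 ± 0.13), and STC2 (-0.54). Summed over the list, SLC7A5 included, the level was 4616 and 4947 CPM under SR11302 and 4235 and 5957 CPM under SP600125. In this sum SP600125 replicate 1 lay below both SR11302 libraries and replicate 2 above both.

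RefSeq gave promoter windows for 22 of the 30 genes. The C/EBP-ATF response element TGATGNAA, searched on both strands, was in 3 of them (ASNS, CHAC1 and ATF3) and in 3.19% of all promoters. The windows of 2 of the most changed genes that hold it are printed, with the element in capitals, which in CHAC1 lies on the opposite strand and so reads as its reverse complement. GENCODE 44 places the start of ASNS within its window and that of CHAC1 upstream of it.
ASNS (chr7:97872409-97872628, - strand): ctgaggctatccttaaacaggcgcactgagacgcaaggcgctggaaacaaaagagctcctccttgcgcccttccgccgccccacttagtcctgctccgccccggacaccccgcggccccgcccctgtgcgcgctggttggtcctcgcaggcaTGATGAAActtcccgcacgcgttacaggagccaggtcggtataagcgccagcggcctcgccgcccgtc
CHAC1 (chr15:40953251-40953470, + strand): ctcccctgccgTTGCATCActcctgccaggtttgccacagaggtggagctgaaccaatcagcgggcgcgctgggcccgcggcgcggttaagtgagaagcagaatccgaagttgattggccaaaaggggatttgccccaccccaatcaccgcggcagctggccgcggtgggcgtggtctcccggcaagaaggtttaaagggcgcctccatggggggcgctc
The element was in 1.34% of the promoters of genes called higher, 1.57% of those called lower and 1.24% of those not called.

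Targets of the tumour suppressor p53, which halts the cell cycle or starts apoptosis, were higher in 17 and lower in none of 25, with a median of 1.06. CDKN1A, the cyclin-dependent kinase inhibitor p21, was at 80.3 and 83.7 CPM under SR11302 and at 311 and 302 CPM under SP600125 (1.90 ± 0.12, adjusted p = 4.3e-17). GDF15, a stress cytokine, was at 2.63 and 2.52 against 16.95 and 17.7 CPM (2.74 ± 0.23, adjusted p = 8.27e-14), and BTG2, an antiproliferative gene, at 10.5 and 9.91 against 50.2 and 47.0 CPM (2.25 ± 0.16, adjusted p = 1.11e-15). Replicates lay close together and the groups did not overlap in these 3 genes. SPATA18 (2.44 ± 0.26) and the apoptosis inducer BBC3, also called PUMA (1.992 ± 0.26), were higher, while BAX (-0.23), CCNG1 (0.01) and PLK3 (-0.35) were not called. The lists overlap, since SESN2 belongs to the stress response list as well. The list holds known targets, and the activity of p53 itself in this SV40-immortalised line was not tested.

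**Figure D4:**
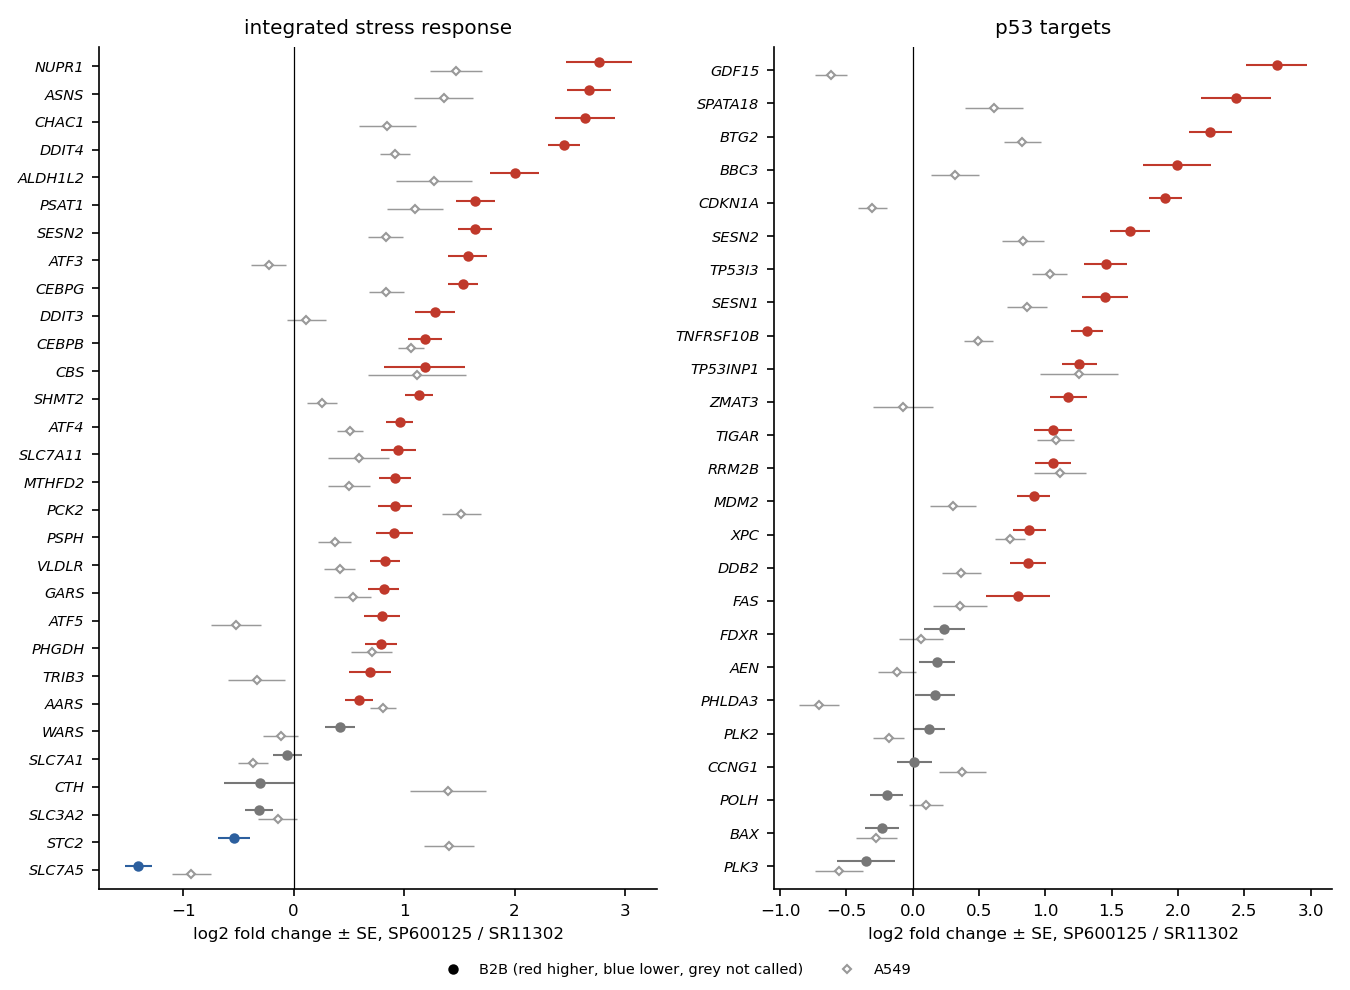
Log2 fold change of SP600125 over SR11302 ± SE for the 30 genes of the integrated stress response (left) and the 25 targets of p53 (right). Filled circles are B2B (red higher, blue lower, grey not called) and open diamonds A549, and in B2B 24 and 17 genes are called higher, led by NUPR1 and GDF15.

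Members of the BCL2 family, which decide on apoptosis, were higher in 6 and lower in 2 of 12 (median 0.56). The BH3-only genes BMF, at 4.07 and 5.05 against 21.1 and 16.5 CPM (2.06 ± 0.21), and BCL2L11, at 19.7 and 17.6 against 76.8 and 59.5 CPM (1.86 ± 0.15), rose, and BAD was lower (-0.99), a call lost with the GC offset. Targets of FOXO factors and other nutrient stress genes were higher in 10 and lower in 2 of 18 (median 0.61), among them TXNIP, which restrains glucose uptake, at 73.0 and 71.4 against 283 and 265 CPM (1.92 ± 0.13), FOXO1 (1.68), KLHL24 (1.60) and SESN1 (1.45). Chaperones of the endoplasmic reticulum stood at 3 higher and 4 lower of 19 with a median of 0.08, with SDF2L1 (-1.43) and CRELD2 (-1.15) lower and DNAJB9 (0.80) higher. Of 14 heat shock genes of the cytosol, 2 were higher and 3 lower. HSPB1 was at 116 and 149 against 37.2 and 40.7 CPM (-1.77 ± 0.14), with 86.3% unique sequence. Lysosome and autophagy genes were higher in 5 and lower in 3 of 24, with GABARAPL1 (0.96) higher and GPNMB (-1.68) lower.

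Genes of the cell cycle moved in both directions and mostly little. DNA replication genes were higher in 6 and lower in 6 of 44 (median 0.19), and genes of mitosis higher in 5 and lower in 5 of 40 (median 0.00), both below the shares over all genes tested. PCNA, the sliding clamp of replication and also a p53 target, was at 253 and 243 CPM under SR11302 and at 454 and 526 CPM under SP600125 (0.98 ± 0.12, adjusted p = 6.44e-09). UHRF1 (-0.89), whose sequence is 72.2% unique, was lower, as were the licensing factor CDT1 (-0.91) and the thymidine kinase TK1 (-0.81), both lost with the GC offset. In mitosis HMMR was at 100.8 and 80.1 against 252 and 180.0 CPM (1.25 ± 0.14), and KIF20A (-0.90), ESPL1 (-0.90) and SPC25 (-0.86) were lower. These counts depended on the GC offset, under which replication genes stood at 1 higher and 3 lower and mitosis genes at 1 higher and 8 lower. Among 19 cyclins and inhibitors of the first gap phase, 5 were higher and 7 lower. CCNE1 was at 7.92 and 7.70 against 21.7 and 22.2 CPM (1.49 ± 0.19), the inhibitor CDKN1C was higher (1.53 ± 0.34), and CDK6 was at 205 and 161 against 73.1 and 85.8 CPM (-1.21 ± 0.13).

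Inflammatory genes downstream of NF-kB were higher in 11 and lower in 2 of 20 (median 0.71). IL6 was at 3.28 and 4.99 CPM under SR11302 and at 19.7 and 19.1 CPM under SP600125 (2.25 ± 0.22, adjusted p = 6.15e-12). CXCL2 was at 0.700 and 1.54 against 5.65 and 4.10 CPM (2.18 ± 0.36), and CXCL8 rose as given above. CCL2, shown with the AP-1 responsive genes, was the exception with its fall, together with LIF (-0.98). Interferon-stimulated genes were higher in 3 and lower in 6 of 23. IFIT2 was at 3.55 and 4.25 against 11.3 and 16.1 CPM (1.82 ± 0.23), while IFI35 (-1.45) and ISG15 (-1.35) were lower, as was IFI44 (-1.14 ± 0.47), whose call was lost with the replicate block. Of 15 genes of antigen presentation by MHC class I, the trimming peptidase ERAP1 was higher (1.12), and the proteasome subunits PSMB10 (-1.57) and PSMB9 (-0.60) and the transporter TAP2 (-1.26) were lower.

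SR11302 is related to retinoids, and of 14 retinoic acid responsive genes tested 2 were higher under SP600125 and 1 lower, with 7 of the 21 listed genes too low to test. DHRS3, a reductase of retinaldehyde, was at 9.10 and 12.0 CPM under SR11302 and at 38.9 and 37.7 CPM under SP600125 (1.87 ± 0.17, adjusted p = 1.56e-12). RARRES1 was higher (0.95 ± 0.28), and RXRA was lower (-0.54 ± 0.13), a call lost with the GC offset. Of 8 genes listed for the aryl hydrocarbon receptor, a sensor of aromatic compounds, 3 were lower and none higher. CYP1B1, an oxidase of such compounds, was at 292 and 262 against 79.1 and 81.9 CPM (-1.78 ± 0.13, adjusted p = 5.08e-16), and the repressor AHRR at 70.04 and 78.9 against 28.2 and 27.1 CPM (-1.43 ± 0.14). The target CYP1A1, at 1.83 CPM or less, was not called (0.04 ± 0.39). The list also holds the receptor AHR (0.39) and its partner ARNT (0.32), neither of them called. Among 23 targets of NRF2, the factor of the antioxidant response, 4 were higher and 6 lower. The exporter ABCC3 was at 35.5 and 46.8 against 94.2 and 105 CPM (1.28 ± 0.14), and OSGIN1 (-2.80 ± 0.41) and ABCC2 (-1.78 ± 0.47) were lower. AKR1B10, also 1 of the genes abundant in A549, had no reads under SR11302 and was at 0.886 and 0.846 CPM under SP600125, at least 11.3-fold higher. Counted among the 4 higher, AKR1B10 passed the filter only through the SP600125 libraries. The metallothionein MT2A, which binds zinc and copper, was at 183 and 262 against 15.2 and 20.8 CPM (-3.63 ± 0.16, adjusted p = 6.02e-23), with 86.1% unique sequence.

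Genes of hypoxia and glycolysis were lower in 12 and higher in 2 of 21, with a median of -0.66. LDHA, which turns pyruvate into lactate, was at 1202 and 1241 CPM under SR11302 and at 466 and 526 CPM under SP600125 (-1.30 ± 0.12, adjusted p = 2.69e-12). Hexokinase HK2 was at 45.1 and 40.2 against 13.9 and 17.3 CPM (-1.45 ± 0.16), CA9 was lower at a level of 2.03 CPM or less (-1.42 ± 0.49, a call lost with the GC offset), and NDRG1, which is also induced by hypoxia, was higher at 11.9 and 14.6 against 64.9 and 51.6 CPM (2.14 ± 0.16). Many glycolytic genes have processed copies in the genome, and of 15 tested members with at least 95% unique sequence 7 were lower. Genes of oxidative phosphorylation were called in 1 of 29, SDHC (0.70 ± 0.15), with 84.1% unique sequence. Circadian clock genes were lower in 9 and higher in 2 of 17 (median -0.77). Besides HLF, they included CIART (-1.53), PER2 (-1.31) and PER1 (-0.90), the last of which lost its call with the GC offset.

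Growth factors and their receptors were called in 17 of 24, with 8 higher and 9 lower. The EGF receptor ligand EREG was at 20.4 and 13.5 CPM under SR11302 and at 1.05 and 3.71 CPM under SP600125 (-2.88 ± 0.29, adjusted p = 1.96e-11), and FGF5 at 31.7 and 22.3 against 4.71 and 4.81 CPM (-2.51 ± 0.20). The receptors FGFR4 (-2.02) and FGFR2 (2.06) moved in opposite directions. Of 6 IGF binding proteins, which hold insulin-like growth factors, 4 were lower and 1 higher. IGFBP3 was at 2016 and 1774 against 377 and 377 CPM (-2.33 ± 0.12, adjusted p = 5.27e-20), IGFBP5 (-1.11) and IGFBP6 (-1.06) were lower, and IGFBP7 was higher (0.54). Genes of WNT and Notch signalling were higher in 8 and lower in 7 of 18. The Notch ligand JAG1 was at 19.0 and 16.4 against 59.8 and 60.2 CPM (1.76 ± 0.15), TCF7 was higher (1.65), and the WNT antagonist DKK1 (-1.47) and HEYL (-1.80) were lower. A last list holds cancer-related genes, among them growth factor receptors and kinases. Of its 10 genes, CCNE1 was higher and EGFR lower, the latter at 176 and 166 against 116 and 123 CPM (-0.52 ± 0.12), and BRAF (0.18) and SRC (-0.08) were not called.

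**Figure D5:**
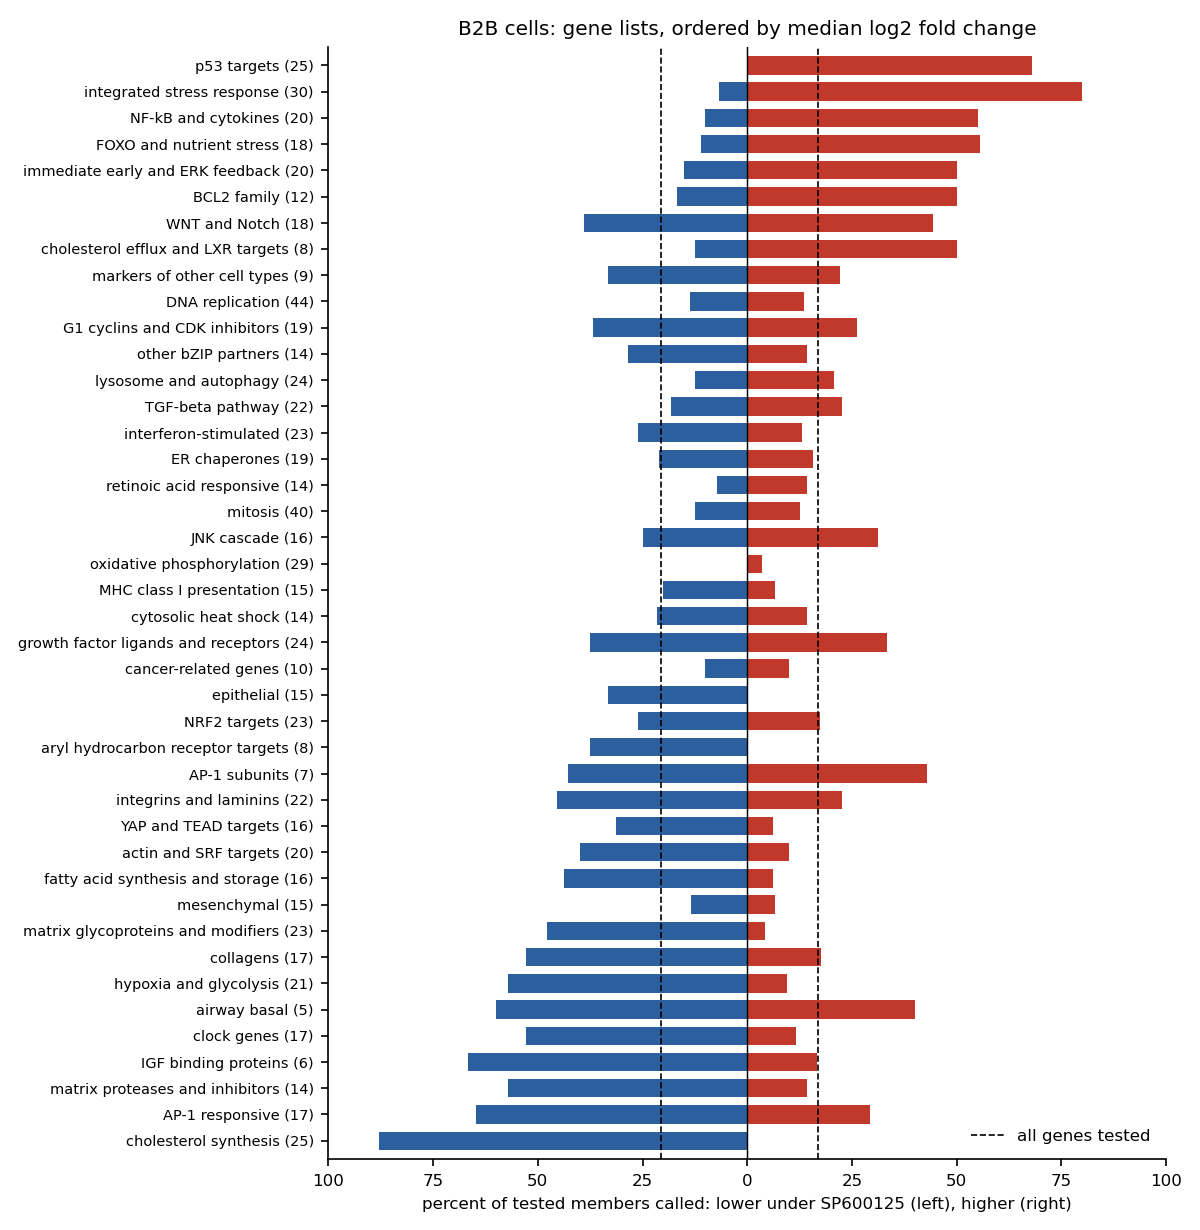
Percent of the tested members of each gene list with at least 5 tested members that were called lower (left, blue) or higher (right, red) under SP600125, with the number tested in brackets and dashed lines at 20.6% lower and 16.9% higher, the shares over all genes tested. Lists are ordered by median log2 fold change, from p53 targets (1.06) at the top to cholesterol synthesis (-1.33) at the bottom.

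Levels in untreated B2B place these differences. They are fitted values from all 12 libraries with shared untreated controls, given side by side without a test. Untreated replicate 2 held traces of A549-abundant genes (ALDH1A1 at 46.9 CPM against 1.43 CPM in replicate 1). Reads in no gene made up 25.8% and 24.1% of the untreated B2B libraries, against 14.6 to 15.1% of the treated B2B libraries. An effect of treatment and this difference between libraries cannot be told apart in the values below. FOS was 2.79 ± 0.23 above untreated under SP600125 and 0.57 ± 0.24 above it under SR11302, FOSL1 was -3.25 ± 0.28 and -0.60 ± 0.25, and JUN was -1.30 ± 0.12 and -0.45 ± 0.12 on the log2 scale. The matrix gene COL1A1 was at -3.53 ± 0.29 under SP600125 and -0.46 ± 0.27 under SR11302, and TNC at -4.99 ± 0.30 and -0.48 ± 0.25. For HMGCS1 the values were -0.63 ± 0.13 under SP600125 and 2.04 ± 0.13 under SR11302, for DHCR7 -1.24 ± 0.13 and 1.34 ± 0.13, and for SREBF2 -0.57 ± 0.10 and 0.84 ± 0.10, each below untreated under SP600125 and above it under SR11302. ABCA1 was 0.71 ± 0.17 under SP600125 and -2.59 ± 0.21 under SR11302. CDKN1A was at 1.58 ± 0.11 and -0.34 ± 0.10, GDF15 at 2.19 ± 0.15 and -0.56 ± 0.18, and ASNS at 1.55 ± 0.25 and -1.14 ± 0.26. MT2A was at -2.06 ± 0.20 and 1.56 ± 0.19, and CCL2 at -1.59 ± 0.22 and 1.96 ± 0.19.

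Whether the distance between the compounds was particular to B2B was tested against A549, as the difference of the 2 log2 fold changes over 8 libraries. Of 15564 genes tested, 1063 (6.83%) had a higher and 840 (5.40%) a lower fold change in B2B than in A549. Cholesterol synthesis differed in 15 of 25 genes, each time lower in B2B, with medians of -1.34 in B2B and -0.26 in A549 in this fit. Targets of p53 differed in 9 of 25, each time higher in B2B, with medians of 1.05 and 0.36, and CDKN1A had a fold change of -0.30 ± 0.11 in A549 (difference 2.20 ± 0.16, adjusted p = 1.02e-05). Genes of NF-kB and cytokines differed in 10 of 24, all higher in B2B (medians 0.70 and -0.20), and replication genes in 11 of 44, all higher in B2B (medians 0.18 and -0.35).

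Differences in both directions were called for the collagens, 4 higher and 5 lower of 19, and for the AP-1 responsive genes, 6 higher and 4 lower of 17. Their medians were -0.61 in B2B and -0.71 in A549 for the collagens and -0.93 and -0.80 for the AP-1 responsive genes, which says nothing of the single genes. CCL2 fell in both lines, by 3.19 ± 0.22 in A549, and its difference was not called (-0.37 ± 0.31, adjusted p = 0.483). Among the AP-1 subunits the difference was called for FOS (1.18 ± 0.32, adjusted p = 0.0333), FOSL2 (0.56 ± 0.17, adjusted p = 0.0465) and JUND (-0.74 ± 0.18, adjusted p = 0.0187), and not for FOSL1 (-0.48 ± 0.42, adjusted p = 0.504), JUN (0.10 ± 0.20, adjusted p = 0.789), FOSB (0.98 ± 0.31, adjusted p = 0.0611) or JUNB (0.54 ± 0.21, adjusted p = 0.124). FOSL2 had a fold change of -0.84 ± 0.12 in A549 against -0.28 ± 0.12 in B2B, where it was not called. JUND was at -0.09 ± 0.13 in A549, and its call in B2B was lost with the GC offset. The counts of genes that differed between the lines moved by more than 1.5 times with single libraries left out, and the values stand under the dependence on processing.

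GC content moved with the comparison. Over 12471 genes with at least 95% unique sequence, the log2 fold change had a Spearman correlation of -0.30 with the GC percent of a gene's main transcript, a description over genes that share libraries. From the lowest to the highest quartile of GC percent, the median log2 fold change was 0.17, 0.15, -0.03 and -0.40. With an offset for GC content, 3915 of the 5288 calls were kept, none turned its direction, and the cholesterol, stress response and p53 groups held 21 lower, 24 higher and 18 higher. Another 1271 tested genes had less than 95% unique sequence, where reads can be lost to copies. Ribosomal protein genes, which have many such copies, were higher in 13 and lower in 10 of 83, with a median of 0.09. Exons shared with another gene make further counts uncertain. At least 25% of the exon length lies in exons of another gene on the same strand for CD68 (81.6%), AHRR (58.7%), ASNS (49.3%), PSMB10 (39.4%) and TAGLN (38.1%). It lies in exons on the opposite strand for HMGCS1 (37.7%), ACTA2, CA9, TAGLN, DDIT3, THBS2, NGFR and ITGA4 (26.4%).

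Some calls named above rested on single libraries. The calls of ABCC2, APOE, CA9, CDH5, EGFR, EGR2, IFI44, IGFBP7, ITGA6, PNPLA3, PSMB9 and RXRA were each lost without at least 1 of the 4 libraries. So was that of AKR1C2.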

How the data were processed

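RNA of the 2 SR11302 and the 2 SP600125 libraries of B2B was compared. Per the labels and the study's methods, the authors extracted total RNA with TRIzol, removed DNA with DNase I, selected polyadenylated RNA, sequenced on Illumina instruments, aligned to hg38 with STAR (version 2.7.10a) and used HTSeq (version 1.99.2) for counting. The files hold the authors' raw counts per gene symbol, and the sources used here give neither the annotation version nor the strand setting. The 15103456 to 23328567 reads in genes per library limit precision for genes under about 1 CPM. HTSeq's tallies of reads given to no gene (14.6 to 15.1% in no feature, 14.9 to 21.1% aligned to several places) were left out.

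Counts were filtered with filterByExpr, scaled by TMM and fitted with edgeR's quasi-likelihood test (version 4.0.16, R version 4.3.3). The fit had 2 residual and 43.4 prior degrees of freedom (the median over genes), so each gene's spread was estimated largely from other genes. Benjamini-Hochberg adjustment ran over the 14099 genes tested, and a call needed a log2 fold change of 0.5 or more in size. The 8 treated libraries were fitted likewise for the difference between lines (4 residual degrees of freedom). The steps were tested on simulated data. Levels against untreated come from a fit of all 12 libraries. Labels call these controls untreated where the study's legends name DMSO. GENCODE 44 gave coordinates and GC percent for 24500 of 26485 symbols, 1339 of them through older symbols, and RefSeq (GRCh38.p14) gave promoters for 10419 of the genes tested, the first window of the table where it lists several. GC and unique percent refer to a gene's main transcript, the latter being the share of its 50-base windows found in no transcript of another annotated gene.

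Named genes are the 7 AP-1 subunits, the 12 largest rises and the 12 largest falls at 10 CPM or more, up to 4 called members with the largest change per list, marker genes, and the 5 largest differences between lines per direction. Some of these genes are counted in the lists but not reported here by name. The 44 gene lists and all members were chosen with earlier results of these data known. Alternatives were DESeq2 (version 1.42.0), other scalings, filters and fold minimums, a replicate block, a GC offset and leaving out each library. Counting intervals are 95% and cover counting error only, and the limit for a count of 0 is 3 reads over a group.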

Additional observations from a re-analysis of the deposited data

Results flagged for a closer look

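The differences below were picked out because a test of the difference itself, edgeR's quasi-likelihood test of the fold change of SP600125 over SR11302 in B2B minus that in A549, passed the threshold. In all, 1063 genes had a higher and 840 a lower fold change in B2B. By gene list, these were 15 cholesterol synthesis genes lower in B2B, and 9 p53 targets, 10 genes of NF-kB and cytokines and 11 DNA replication genes higher in B2B. Among the AP-1 subunits they were FOS (1.18), FOSL2 (0.56) and JUND (-0.74). FOSL2 was not called in B2B (-0.28 ± 0.12) and was at -0.84 ± 0.12 in A549. The B2B call of JUND was lost with the GC offset, and in A549 JUND was at -0.09 ± 0.13.

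Most of the largest fitted differences fell on genes that 1 line hardly expresses, so their size depends on few reads. UBE2QL1 (fitted difference 8.17) was at 1.70 and 1.41 CPM under SR11302 and at 9.17 and 11.1 CPM under SP600125 in B2B, and in A549 it had 5 and 8 reads under SR11302 and none under SP600125. LGSN (7.93) was at 32.4 and 54.2 against 85.8 and 85.2 CPM in A549 and had no reads under SR11302 in B2B, where SP600125 gave 72 and 42 reads, at least 44.6-fold higher. IPO5P1 (6.598), a pseudogene whose reads may belong to its parent gene, had 9 and 11 reads under SR11302 and none under SP600125 in A549, at least 4.22-fold lower. AKR1B10 (6.46) and ADAMTS9 (6.44) had no reads under SR11302 in B2B, and 16 and 13 or 9 and 12 reads under SP600125.

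In the other direction, PDGFD (-7.59) had 21 and 3 reads under SR11302 and none under SP600125 in B2B, at least 6.82-fold lower, and was at 41.2 and 60.4 against 112 and 118 CPM in A549. COL1A2 (-7.20), lower under SP600125 in B2B, had 5 reads in all in treated A549, each in 1 SP600125 library. PRSS35 (-7.08) was at 8.72 and 6.32 against 0.781 and 1.16 CPM in B2B and at 0.342 and 1.25 against 14.2 and 14.5 CPM in A549. This gene was thus expressed in both lines and moved in opposite directions. HKDC1 (-6.88) had no reads under SP600125 in B2B, at least 27.3-fold lower, and in A549 was at 133 and 118 against 43.1 and 43.2 CPM. THBS2 (-6.34), a fall among abundant genes of B2B, was at 1.33 CPM or less in treated A549.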

How the results depend on the processing

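No called gene turned its direction under any alternative run. With the replicate block 5138 of the 5288 calls were kept and 5163 genes were called in all. The replicate numbers only share a number, since deviations of same-numbered libraries correlated at -0.09. DESeq2 kept 4601 calls and library sizes alone 4929, where 53.2% of calls were higher against 45.2%, with the median of all genes at 0.07.

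With a fold minimum of 1 there were 897 genes higher and 1479 lower, and 4.43% of genes had a higher and 3.53% a lower difference between lines, against 6.83% and 5.40%. The lower AP-1 subunits then numbered 1, lower AP-1 responsive genes 7, higher stress response genes 13, lower hypoxia and glycolysis genes 5 and lower clock genes 3. With the GC offset 4685 genes were called, and 10.4% of genes had a higher and 8.90% a lower difference between lines (8.23% lower with the replicate block as well). Among genes with 95% unique sequence, an alternative chosen after seeing the data, 7 hypoxia and glycolysis genes were lower of fewer tested.

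Leaving out each library in turn, with the lone sample of its group assumed to vary like the others, gave 1996 to 2380 genes higher and 2305 to 2781 lower. The differences between lines ranged from 2.78% to 11.3% of genes higher and from 2.27% to 11.1% lower, the upper ends without A549 SR11302 replicate 2. Causes were not tested. Of 183 calls of genes chosen by rule, the fold minimum of 1 ended 34, the GC offset 13 (among them JUND, APOE and PER1), DESeq2 6, the fit of all 12 libraries 6 (among them ALDH1A1, AKR1B10 and RARRES1), library sizes alone 3, the replicate block 1 (IFI44) and leaving out 1 library 9 to 12.

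Without SR11302 replicate 1 the calls of ABCC2, APOE, CDH5, EGFR, EGR2, IFI44 and IGFBP7 were lost, and without SR11302 replicate 2 those of APOE, CA9, CDH5, EGR2, IFI44, PNPLA3 and PSMB9. Without SP600125 replicate 1 those of ABCC2, CDH5, EGFR, EGR2, IFI44 and ITGA6 were lost, and without SP600125 replicate 2 those of APOE, CA9, CDH5, IGFBP7, PSMB9 and RXRA. The call of AKR1C2 was lost without SR11302 replicate 1, SR11302 replicate 2 or SP600125 replicate 2. Its log2 fold change ranged from 2.09 to 2.59 over the 4 omissions. Over the 4 omissions the log2 fold change ranged from -2.69 to -1.16 for ABCC2, -0.92 to -0.72 for APOE, -1.998 to -1.02 for CA9, 1.31 to 1.97 for CDH5, -0.56 to -0.46 for EGFR, 1.11 to 2.54 for EGR2, -1.56 to -0.75 for IFI44, 0.47 to 0.63 for IGFBP7, -0.92 to -0.47 for ITGA6, -1.55 to -0.78 for PNPLA3, -0.75 to -0.46 for PSMB9 and -0.61 to -0.46 for RXRA.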
